A study of Homo sapiens with 4 samples.

Results

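The genes described here are 220 human ZNF genes, a numbered family whose products carry zinc fingers. They were chosen from the 14431 genes listed in an RNA-seq table by 2 criteria. The symbol had to be ZNF followed by a number, with at most 1 further letter, and the gene had to reach at least 5 reads per 1000000 (CPM) in each of the 4 libraries. Of 429 listed genes with such a symbol, 220 met the level criterion, and these 220 are called members below. The criterion used the measured levels, so levels near it and counts over the members are given as descriptions.

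The libraries came from HGC27, a human gastric cancer cell line, grown in medium without glucose to which 25 mM lactate was added, for 24 h per the labels. The study's text gives another duration, so the time under lactate is uncertain. In 2 libraries (siAARS1) AARS1 had been knocked down with small interfering RNA, and the other 2 (control) came from wild-type cells of the same line. The control columns are named NC, and these names do not say whether a control small interfering RNA was given. The study's text names a scramble control for other assays of AARS1 knockdown. Every library received lactate and lacked glucose, so nothing here compares lactate with no lactate. The labels do not say whether the duplicates of a group came from separate cultures, and the p-values then measure only the spread between these libraries, which may be technical.

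A C2H2 zinc finger is a short fold of the protein chain held by a zinc ion between pairs of cysteine and histidine, and most ZNF proteins carry several in a row that read DNA. Many also carry a KRAB box, which binds TRIM28 (KAP1) and through it the histone methyltransferase SETDB1 and HP1 proteins, and so silences transposable elements and other targets. KRAB genes arose by repeated duplication and stand in clusters, above all on chromosome 19. Other ZNF proteins have no KRAB box and act in ribosome assembly, splicing, cell division or other corepressor complexes.

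The targeted gene was lower in both knockdown libraries. AARS1 (listed as AARS, chr16:70252295-70289543, GRCh38), the gene of the alanyl-tRNA synthetase of the cytosol, had 428 and 417 CPM in the controls, against 292 and 298 CPM with siAARS1, or 69.7% of the control mean. On the log2 scale the change was -0.52 (limma adjusted p = 2.52e-11, SE 0.0357) and -0.30 after the correction for GC content and transcript length described below. Depth was 30653210 to 33522573 reads per library over the listed genes, and 1 read was worth 0.0293 to 0.0324 CPM. Of the markers used to check the label, the epithelial KRT8 stood at 5.08 to 25.2 CPM and CDH1 at 0.680 to 2.55 CPM, while the mesenchymal VIM stood at 4600 to 5131 CPM. The epithelial EPCAM, KRT18 and KRT19 and the gastric TFF1, TFF2, MUC5AC, CLDN18 and GKN1 were not among the genes listed, nor were CDH2, PTPRC of leukocytes and PECAM1 of endothelium. The mesenchymal VIM was thus far above the epithelial markers that were listed, and the label of a gastric epithelial line rests here on KRT8 and CDH1 alone. Some of them moved with the groups: KRT8 had 24.8 and 25.2 CPM in the controls, against 6.61 and 5.08 CPM with siAARS1, the mesenchymal ZEB1 had 6.16 and 6.84 CPM against 50.03 and 52.3 CPM, and COL1A1, which fibroblasts also make, had 2320 and 2399 CPM against 1644 and 1541 CPM. DCN of fibroblasts lay at 239 to 270 CPM and the erythroid HBA1 at 54.5 to 66.0 CPM. Their part in the results below was not tested.

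The members together took a larger share of the RNA in the knockdown libraries. Their summed level was 5624 and 5745 CPM in the control libraries, against 6921 and 7018 CPM in the siAARS1 libraries. The median member had 15.02 and 15.7 CPM in the controls, against 20.2 and 20.1 CPM with siAARS1. Both measures were higher in each siAARS1 library than in each control library. In bulk RNA, fewer cells of a kind and less RNA per cell cannot be told apart. The least abundant member of a library still rested on 161 to 172 reads. Between replicates, log2(CPM + 1) of a member differed by a median of 0.0811 in the control group and 0.0758 in the siAARS1 group, while the median absolute change between groups was 0.270.

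Of the 220 members, 100 rose, 37 fell and 83 did not pass the test (limma on log2(CPM + 1), adjusted p under 0.05 over all 14199 genes tested). That is 45.5% higher and 16.8% lower. Over all genes tested, 32.6% were called higher and 38.0% lower, or 70.7% in either direction. The median log2 fold change of the members was 0.14, with quartiles of -0.12 and 0.62, and that of all genes was -0.05. Of the members, 33 rose by at least 2-fold, against 10.6% of all genes. In that fit 0 members fell by as much at any p-value, since the lowest change was -0.81, and edgeR and DESeq2 also gave 0, against 1.63% of all genes in the limma fit. Under median scaling 1 member did, ZNF385A at -1.03, and under the correction for the coding sequence and 3' UTR described below 3 did, ZNF280D among them at -1.59. The siAARS1 libraries were both above both controls for 118 members and both below for 64, and the groups overlapped for 38 members. For all genes the groups stood apart in 38.5% and 46.6% in the same order, 85.1% in all. When each library was scaled by its median gene, 76 members were called higher and 95 lower, so higher calls were 44.4% of the members' calls and not 73.0%. That scaling moved the median of all genes to -0.26 and that of the members to -0.07, and the distance between the medians was 0.19 under both scalings. All genes were then called higher in 23.8% and lower in 56.3%. With quantile normalization 78 members were called higher and 87 lower, against 28.1% and 47.7% of all genes. With edgeR (TMM) on the recovered reads 110 were higher and 30 lower, against 34.7% and 34.3% of all genes. The direction of a member with a small change thus depends on the scaling, and directions below are those of the deposited CPM.

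**Figure D1:**
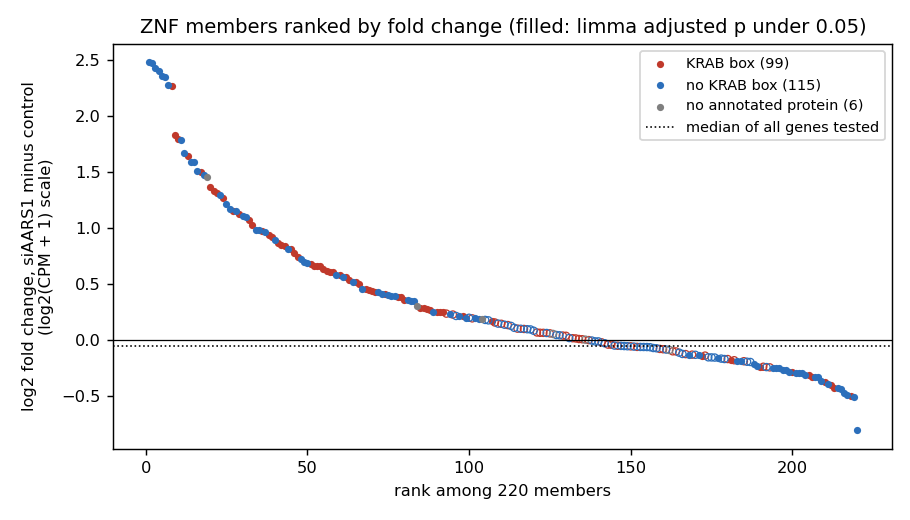
Log2 fold change (siAARS1 minus control, log2(CPM + 1) scale) of the 220 members against their rank, coloured by the KRAB box. Filled circles passed the limma test and open circles did not, and the dotted line is the median of all genes tested, -0.05. The ranks run from 2.48 for ZNF644 to -0.81 for ZNF385A, with 100 filled circles above 0 and 37 below it.

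The criterion of 5 CPM in every library left out genes unevenly. Of the ZNF genes that did not meet it, 60 had a mean over the 4 libraries of at least 5 CPM. For 55 of these only control libraries were under 5 CPM, and for 5 only siAARS1 libraries were. Among the 60, 54 were called higher and 1 lower, with a median log2 fold change of 1.23. Genes that meet the mean with a control library under 5 CPM will mostly be higher with siAARS1. These counts thus follow largely from the choice and are only descriptions. With a mean of at least 5 CPM as the criterion, 280 genes were kept, of which 154 rose and 38 fell, and the median log2 fold change was 0.28. With at least 10 CPM in each library, 147 were kept, 59 rose, 28 fell and the median was 0.06. With no level criterion, 426 ZNF genes could be tested, 251 rose, 43 fell and the median was 0.41. All genes tested were called higher in 32.6% and lower in 38.0%. Those with at least 5 CPM in each library were so in 33.6% and 41.2%. Shares over all genes for the mean criterion and for 10 CPM are not given here. The members' own counts therefore hold fewer of the higher ZNF genes than a looser choice would.

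The genes on either side of the criterion are given as examples. They were picked by their lowest library, the value that the criterion used, so their directions are no separate support. Just inside it, ZNF114 had 5.04 and 5.64 CPM in the controls, against 8.32 and 8.99 CPM with siAARS1. ZNF548 had 5.04 and 5.36 CPM against 5.51 and 7.10 CPM, and ZNF140 had 5.10 and 5.08 CPM against 7.03 and 7.55 CPM. For all 3 the siAARS1 libraries were the higher ones. Just outside it, ZNF407 had 5.04 and 4.95 CPM in the controls, against 15.02 and 14.5 CPM with siAARS1. ZNF286B had 4.90 and 4.92 CPM against 13.4 and 12.7 CPM, while ZNF16 had 5.13 and 5.80 CPM against 4.89 and 5.32 CPM. ZNF407 and ZNF286B were thus left out by their control level, and ZNF16 by 1 siAARS1 library.

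**Figure D2:**
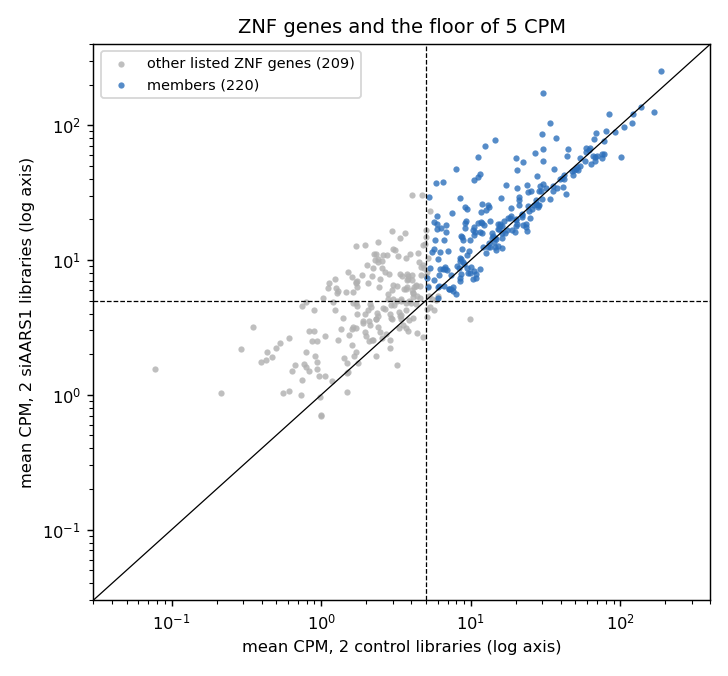
Mean CPM of each listed ZNF gene in the control libraries (horizontal, log axis) and in the siAARS1 libraries (vertical, log axis). Blue points are the 220 members, grey points the 209 other ZNF genes, dashed lines mark 5 CPM and the solid line marks equal levels. Many grey points lie left of the vertical dashed line and above the horizontal one, which are the genes left out by their control level.

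The 10 largest rises were in AT-rich transcripts, with a GC content of 34.9% to 41.8%, and in 7 of these genes no KRAB box was found. ZNF644, a partner of the histone methyltransferases G9a and GLP (chr1:90915298-91022272), had 5.31 and 6.40 CPM in the controls, against 34.0 and 40.5 CPM with siAARS1. The gene rose by 2.48 on the log2 scale (limma adjusted p = 1.79e-15, SE 0.0987). ZNF146, a protein made almost wholly of zinc fingers (chr19:36214602-36238774), had 28.98 and 31.4 CPM in the controls, against 165 and 179 CPM with siAARS1. The groups were far apart for both genes, and the change of ZNF146 was 2.47 (limma adjusted p = 7.88e-20, SE 0.0529). ZNF711, which recruits the histone demethylase PHF8 (chrX:85244032-85273362), had 7.62 and 8.38 CPM against 44.2 and 50.8 CPM, a change of 2.43. ZNF638, which acts with the HUSH complex on retroviral DNA (chr2:71276561-71435069), had 13.5 and 15.4 CPM against 74.2 and 82.0 CPM, a change of 2.36. In each case the lowest siAARS1 library was several times the highest control.

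ZNF507 had 11.1 and 13.8 CPM in the controls, against 68.6 and 70.5 CPM with siAARS1. ZNF518A had 6.39 and 6.71 CPM against 35.98 and 39.2 CPM, and ZNF770 had 11.2 and 11.2 CPM against 55.8 and 60.3 CPM. Their log2 fold changes were 2.40, 2.35 and 2.27, with no overlap of the groups. The KRAB genes among the 10 largest rises were ZNF12, ZNF300 and ZNF302. ZNF12 (chr7:6688433-6706923) had 5.22 and 5.29 CPM in the controls, against 28.5 and 29.7 CPM with siAARS1, a change of 2.27 (limma adjusted p = 1.71e-15, SE 0.0899). ZNF300 had 12.3 and 10.9 CPM against 41.7 and 45.8 CPM, and ZNF302 had 9.91 and 11.1 CPM against 35.7 and 42.5 CPM. These were changes of 1.83 and 1.80. Taking out the trend with GC content and length left all 10 higher, by 0.79 to 1.80, each with a limma adjusted p under 0.05. A second correction, for the coding sequence and the 3' UTR, turned ZNF518A to -0.29 (limma adjusted p = 0.00162) and left ZNF644 at 0.17 (limma adjusted p = 0.0623).

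The falls were smaller. ZNF385A, an RNA- and p53-binding protein (chr12:54369133-54391298), had 101 and 102 CPM in the controls, against 57.2 and 58.0 CPM with siAARS1. Its log2 fold change of -0.81 (limma adjusted p = 1.01e-12, SE 0.0461) was the lowest of all members, and it was -0.44 after the correction for GC content and length. ZNF423, a cofactor of SMAD and EBF proteins (chr16:49487524-49857919), had 22.2 and 25.6 CPM against 15.8 and 17.0 CPM, a change of -0.51 (limma adjusted p = 1.17e-05, SE 0.0827). ZNF641, a KRAB gene, had 10.8 and 10.8 CPM against 7.06 and 7.64 CPM, a change of -0.50. In these genes both siAARS1 libraries were below both controls.

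ZNF703 and ZNF503 encode the NET family of corepressors, and both fell. ZNF503 had 169 and 168 CPM in the controls, against 128 and 123 CPM with siAARS1, a change of -0.43 (limma adjusted p = 4.91e-09, SE 0.0405). ZNF703, which is amplified in some breast cancers, had 41.6 and 45.5 CPM against 31.2 and 30.1 CPM, a change of -0.49. The groups did not overlap in either gene. Exons of ZNF503 overlap the antisense gene ZNF503-AS2, and whether reads were counted by strand is not given in the sources used here. The rest of the 10 largest falls were ZNF469 (-0.47), ZNF821 (-0.43), ZNF71 (-0.42), ZNF862 (-0.40) and ZNF496 (-0.39), the last a SCAN protein that binds NSD1. After the correction for GC content and length all 10 stayed below 0, at -0.44 to -0.07, and 3 of them, ZNF385A, ZNF423 and ZNF641, kept a limma adjusted p under 0.05.

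**Figure D3:**
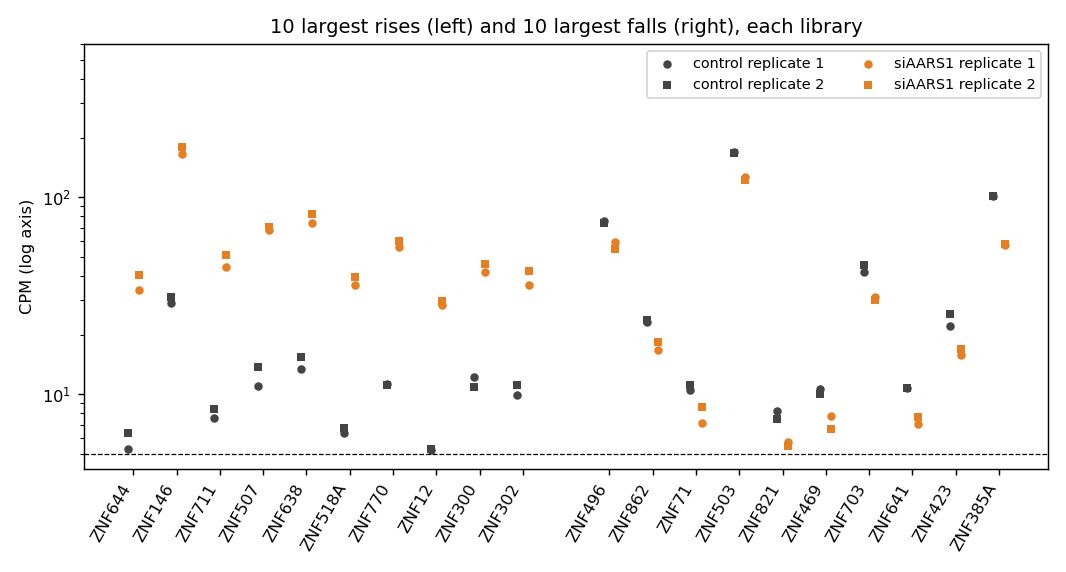
CPM (log axis) of the 10 members with the largest rises and the 10 with the largest falls, 1 point per library. Black points are control and orange points siAARS1 libraries, circles replicate 1 and squares replicate 2, and the dashed line marks 5 CPM. The groups are apart for every gene shown, by far more for the rises, whose siAARS1 points lie between 28.5 and 179 CPM, than for the falls.

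A list of 34 ZNF genes with a known molecular role was also followed. Of these, 29 were members, and 15 of the 29 rose, 5 fell and 9 did not pass the test. Not members were ZNF91 and ZNF93, KRAB repressors of SVA and LINE-1 elements, and ZNF148, ZNF292 and ZNF407. Beside the background of 32.6% higher and 38.0% lower, the list had 51.7% and 17.2%.

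Of the 3 members that act on ribosomes, 1 fell and 2 did not pass the test. ZNF598, the ubiquitin ligase that marks collided ribosomes, had 93.1 and 89.8 CPM in the controls, against 88.7 and 87.9 CPM with siAARS1. Its change was -0.05 (limma adjusted p = 0.328, SE 0.0449). ZNF622, a factor of the large ribosomal subunit, had 46.6 and 47.8 CPM against 44.9 and 46.1 CPM, and also did not pass the test (change -0.05, limma adjusted p = 0.383). ZNF593, another factor of that subunit, had 33.5 and 34.6 CPM against 27.5 and 29.4 CPM, a change of -0.25 (limma adjusted p = 0.00155, SE 0.0645). For ZNF598 and ZNF622 the siAARS1 libraries were below both controls by small margins, and after the correction for GC content and length the changes were 0.33 and 0.20. The fall of ZNF593 was lost under that correction (0.036, limma adjusted p = 0.613) and under that for the coding sequence and 3' UTR (0.12, limma adjusted p = 0.0841).

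Of the members on the role list that work in RNA processing and cell division, 4 rose and 1 was not called. Over all genes 32.6% were called higher, and members outside the list were not sorted by role. ZNF326, of a complex that links RNA polymerase II and splicing, had 27.8 and 26.1 CPM in the controls, against 60.001 and 64.3 CPM with siAARS1, a change of 1.17 (limma adjusted p = 1.36e-13, SE 0.0598). ZNF318, which shapes the splicing of IgD in B cells, had 43.1 and 45.9 CPM against 67.1 and 65.5 CPM, a change of 0.57. ZNF830, a splicing factor, had 20.9 and 21.3 CPM against 25.7 and 25.0 CPM, a change of 0.25 (limma adjusted p = 0.00328) that became -0.07 (limma adjusted p = 0.375) with the correction for GC content and length. The kinetochore and spindle protein ZNF207 (BuGZ) was the most abundant member, per length as well, at 95.6 CPM per kb of transcript. It had 182 and 190 CPM in the controls, against 246 and 254 CPM with siAARS1, a change of 0.42 (limma adjusted p = 3.06e-09, SE 0.0389). In all 4 genes the siAARS1 libraries were above both controls. ZNF346, which binds double-stranded RNA, had 40.4 and 38.1 CPM against 41.6 and 37.9 CPM, with overlap of the groups and no call.

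Transcription and chromatin factors went both ways. ZNF143, an activator of snRNA and mRNA promoters, had 8.56 and 10.1 CPM in the controls, against 19.01 and 19.6 CPM with siAARS1, a change of 0.98 (limma adjusted p = 6.45e-09, SE 0.0940). Its close relative ZNF76 had 51.1 and 49.9 CPM against 49.7 and 45.5 CPM, a change of -0.09 that did not pass (limma adjusted p = 0.182). The siAARS1 libraries of ZNF143 were far above its controls and those of ZNF76 just below them, and the difference between these paralogs was not tested. ZNF281, a regulator of pluripotency and of the epithelial to mesenchymal transition, had 36.6 and 37.4 CPM against 79.2 and 81.8 CPM, a change of 1.10. ZNF217, a partner of the CoREST and CtBP corepressors, had 23.2 and 24.9 CPM against 33.1 and 30.8 CPM, a change of 0.40 that turned to -0.18 (limma adjusted p = 0.0179) with the correction for GC content and length. ZNF592 and ZNF687, which share a complex with ZMYND8, differed in their calls. ZNF592 had 40.4 and 43.0 CPM against 41.7 and 38.5 CPM, with overlap, and ZNF687 had 75.3 and 79.9 CPM against 63.7 and 59.4 CPM, a change of -0.33 (limma adjusted p = 7.59e-06, SE 0.0515). That call was lost after the correction for GC content and length, at 0.0025 (limma adjusted p = 0.962).

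ZNF274, the KRAB and SCAN protein that brings SETDB1 to the 3' ends of ZNF genes, had 26.2 and 26.7 CPM in the controls, against 26.1 and 24.8 CPM with siAARS1. Its change of -0.06 did not pass the test (limma adjusted p = 0.470). ZNF410, known for activating CHD4, had 51.6 and 51.1 CPM against 49.5 and 48.6 CPM and was not called either (change -0.06, limma adjusted p = 0.280), and CHD4 itself had 864 and 868 CPM against 897 and 883 CPM with no call. Since 85.5% of the 50-base words of the ZNF410 transcript also occur in another annotated gene, its count is uncertain. Members with other roles that rose were the SUMO ligase ZNF451 (1.79), the SCAN protein ZNF24 (1.51), ZNF280C (1.29), the BTB protein ZNF131 (1.22), ZNF462 (0.58) and ZNF280D (0.35). ZNF280D shares 49.1% of its 50-base words with another gene, and its change became -0.76 (limma adjusted p = 3.08e-06) with the correction for GC content and length. With the correction for the coding sequence and 3' UTR, ZNF280C and ZNF462 both stood at -0.12 (limma adjusted p = 0.238 and 0.127). ZNF335, of H3K4 methyltransferase complexes, had 39.4 and 41.8 CPM against 41.0 and 39.5 CPM, and ZNF384 had 62.2 and 60.8 CPM against 66.9 and 64.8 CPM, and neither passed the test. ZNF609, a partner of Integrator and NIPBL, fell from 120 and 118 CPM to 104 and 105 CPM, a change of -0.19 (limma adjusted p = 0.000518). Of the other 2 most abundant members, ZNF618 had 119 and 124 CPM against 123 and 119 CPM, and ZNF595 had 140 and 134 CPM against 136 and 137 CPM. Both overlapped between groups.

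A KRAB box was found in the annotated proteins of 99 members and not in those of 115, and 6 had no annotated protein. The counts of these groups are descriptions and were not tested against each other. Of the 99, 52 rose and 10 fell, with a median log2 fold change of 0.25. Of the 115, 45 rose and 27 fell, with a median of 0.06. That is 52.5% higher and 10.1% lower in the first group and 39.1% and 23.5% in the second. Over all genes tested the shares were 32.6% and 38.0%. The median GC content of the transcripts was 46.2% in the first and 53.2% in the second, and after the correction for GC content and length the medians were 0.21 and 0.19. Rises of at least 2-fold were seen in 13 KRAB members and 19 with no KRAB box, beside 10.6% of all genes tested.

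Of 65 members on chromosome 19, 34 rose and 4 fell, with a median log2 fold change of 0.25. Of 152 on other chromosomes 66 rose and 33 fell, with a median of 0.10. Over all genes tested, 32.6% were called higher and 38.0% lower, beside which the counts here and for the clusters are read. The 43 KRAB members on chromosome 19 had 29 rises, 2 falls and a median of 0.45, and the 56 KRAB members elsewhere had 23 rises, 8 falls and a median of 0.10. The 21 members on chromosome 19 with no KRAB box had 4 rises, 2 falls and a median of 0.04, at a median GC content of 61.7% against 44.0% for the 43. The 94 members elsewhere with no KRAB box had 41 rises, 25 falls and a median of 0.10. After the correction for GC content and length the medians of these 4 groups were 0.21, 0.20, 0.29 and 0.13. Neighbouring members can be read as clusters. In the cluster at chr19:36214602-37393066, all 5 members (ZNF146, ZNF566, ZNF529, ZNF585A and ZNF527) rose, with a median of 0.86. After the correction their median was -0.11. Of the 5 members at chr19:11483427-12633840, 4 rose (ZNF627, ZNF440, ZNF700 and ZNF791), with a median of 0.85. At the end of the long arm, chr19:55476332-58481230, 7 of 24 members rose and 2 fell, with a median of 0.06. On chromosome 7, chr7:149069643-150398631 held 12 members, of which 2 rose and 4 fell, with a median of -0.09. After the correction the medians of the last 3 clusters, in the order given, were 0.33, 0.24 and 0.23.

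The number of fingers and the SCAN domain, which lets such proteins pair, split the members further. The median log2 fold change was -0.05 for 19 members with 0 or 1 finger found, -0.05 for 29 with 2 to 4, 0.11 for 75 with 5 to 9, 0.21 for 65 with 10 to 14 and 0.23 for 26 with 15 or more. After the correction for GC content and length the medians in the same order were -0.06, 0.23, 0.25, 0.11 and 0.28, with no steady rise. A SCAN domain was found by pattern in 11 members. Other members may carry the domain, so these counts hold only for the 11. Of these, 2 rose (ZNF24 and ZNF397) and 6 fell, with a median of -0.24. Their median was 0.08 after the correction for GC content and length. That is 18.2% higher and 54.5% lower, beside 32.6% and 38.0% of all genes tested. Related families held to the same level of 5 CPM in each library gave medians of 0.05 for 34 ZBTB genes, with 15 rises and 11 falls, 0.06 for 16 ZSCAN and ZKSCAN genes, with 6 rises and 4 falls, and 0.32 for 5 ZFP genes, of which 4 rose and 1 did not pass. All 10556 genes at that level had a median of -0.06, with 33.6% called higher and 41.2% lower.

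**Figure D4:**
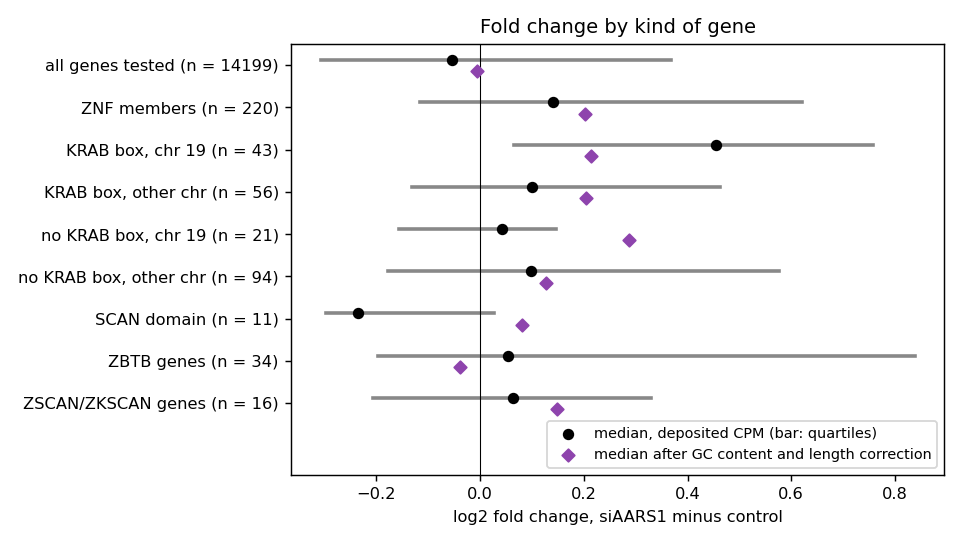
Median log2 fold change (siAARS1 minus control) by kind of gene, from the deposited CPM (black circles, with bars from the first to the third quartile) and after the correction for GC content and length (purple diamonds). Before the correction the KRAB genes of chromosome 19 stand at 0.45 and the members with a SCAN domain found at -0.24. After it the 4 groups split by KRAB box and chromosome lie between 0.13 and 0.29.

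The fold change of the members followed the base composition of their transcripts. Across 217 members with an annotated transcript, Spearman's rho between log2 fold change and GC content was -0.76, and across 13819 genes it was -0.65. These are correlations across genes that share the same 4 libraries, and genes are not independent replicates. With transcript length rho was 0.31 over members. All genes were split into 5 equal classes of GC content. In the class of lowest GC content (27.8% to 41.5%), 38 of 41 members rose and the other 3 did not pass the limma test, with a median of 1.17 against 0.77 for all genes of the class. In the second class 43 of 55 members rose and 1 fell, with medians of 0.45 and 0.21. In the third class 13 of 34 rose and 6 fell, with medians of 0.14 and -0.12. In the fourth class 5 of 36 rose and 14 fell, with medians of -0.08 and -0.24. In the class of highest GC content (59.1% to 75.6%), 1 of 51 rose and 16 fell, with medians of -0.12 and -0.30. From the lowest to the highest class, all genes were called higher in 79.9%, 52.4%, 19.7%, 6.55% and 5.03%. They were called lower in 3.84%, 17.7%, 41.8%, 61.5% and 67.2%. The counts of members thus run with those of all genes across the classes. The members' median was above that of all genes in each of the 5 classes.

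With the trend on GC content and length taken out over all genes, 116 of 217 members were called higher and 28 lower. The median member then had 0.20, and 32.9% and 33.3% of all genes were called higher and lower. The calls did not all fall on the same genes. Of the 100 members that rose in the deposited CPM, 66 were still called higher and 14 were called lower, and of the 37 that fell, 4 were still called lower and 6 were called higher. Rises of at least 2-fold went from 33 to 9 members. With the coding sequence and the 3' UTR in place of the whole transcript, 109 of 214 members were higher and 27 lower, against 34.3% and 31.5% of all genes. Such a correction takes out any true change that follows GC content or length as well, and its part in the results was measured only by these values.

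**Figure D5:**
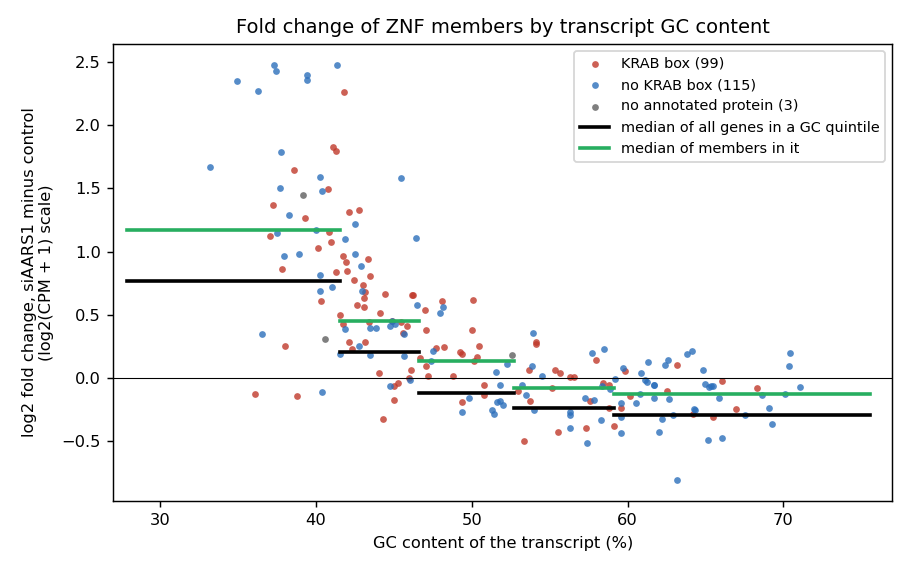
Log2 fold change of 217 members (log2(CPM + 1) scale) against the GC content of their transcripts, coloured by the KRAB box. Black bars are the medians of all genes and green bars those of members in 5 equal classes of GC content. The points fall from left to right, and the green bars, from 1.17 to -0.12, lie above the black ones, from 0.77 to -0.30.

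Base composition was also read in the most conserved piece of these genes, the linker between neighbouring fingers. Its protein sequence is nearly constant in the family, so differences in its DNA lie largely in the choice of codon. Below is 1 linker from each of the 3 members with the largest rises and the 3 with the largest falls among 68 members with at least 5 such linkers, from GENCODE v29 transcripts. It is the linker that recurs most within the gene or, in ZNF300, ZNF322 and ZNF775, where none recurs, the alphabetically first. The capitals mark the 5 linker codons, after the codon of the last zinc-binding histidine and before that of the next residue.
ZNF300, risen, chr5:150895676-150895696, minus strand: cacACAGGAGAAAAACCTtat
ZNF33A, risen, chr10:38055343-38055363, plus strand: catACAGGGGAGAAACCCtat
ZNF322, risen, chr6:26638005-26638025, minus strand: cacACAGGTGAGAAACCAttt
ZNF71, fallen, chr19:56622245-56622265, plus strand: cacACCGGCGAGAAGCCCtac
ZNF775, fallen, chr7:150397472-150397492, plus strand: cacACAGGCGAGCGCCCGcac
ZNF287, fallen, chr17:16552702-16552722, minus strand: catACTGGAGAGAAACCAtat

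The printed linker of ZNF300 ends every capital codon in A or T and that of ZNF322 most of them, at a GC content of 38.1% and 42.9%, while that of ZNF33A mixes both kinds, at 47.6%. Those of ZNF71 and ZNF775 end them mostly in G or C, at 66.7% and 76.2%. Over all linkers of a gene the mean GC content was 43.8% in ZNF300, 49.7% in ZNF33A, 50.5% in ZNF322, 64.5% in ZNF71 and 70.6% in ZNF775, so the printed linkers of ZNF300, ZNF322 and ZNF775 are more extreme than those genes' means. ZNF287 fell with AT-rich linkers, at 38.1% in the one printed and 40.5% on average, so the pattern had exceptions. ZNF33A had 8.30 and 8.64 CPM in the controls, against 27.1 and 30.2 CPM with siAARS1, a change of 1.65 (limma adjusted p = 2.04e-13). ZNF322 had 5.92 and 5.36 CPM against 19.4 and 18.5 CPM, a change of 1.59. ZNF287 had 7.45 and 7.79 CPM against 5.76 and 5.99 CPM, a change of -0.33 (limma adjusted p = 0.0132). These 3 genes and ZNF775 were chosen for their linkers after their values were seen. Over the 68 members, the median GC content of all linkers of a gene was 47.6% in the 41 that rose, 54.3% in the 21 not called and 65.1% in the 6 that fell.

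Promoters were read from RefSeq for 185 of the 220 members, from 250 bases before to 50 after the start. The ETS motif CCGGAAG, searched on both strands, was in 35.1% of the members' promoters, in 19.1% of those of 9652 tested genes and in 10.7% of all 27305. It was in 30.6% of the promoters of members that rose, 37.5% of those that fell and 39.7% of those not called. The TEAD motif GGAATG was in 13.5% of members, 10.8% of tested genes and 14.05% of all promoters, the CRE motif TGACGTCA in 5.95%, 3.28% and 1.98%, and the GC box CCCGCCC in 48.6%, 54.7% and 32.9%. The only other motif searched was the TATA box TATAAA, in 3.78%, 5.17% and 11.95%. A match describes letters only and is not a bound site. The promoters of a KRAB gene that rose, ZNF12, and of a KRAB gene that fell, ZNF641, are given as examples that both hold the ETS motif, from GRCh38.p14, with motif matches in capitals.
ZNF12, risen, chr7:6706898-6707197, minus strand: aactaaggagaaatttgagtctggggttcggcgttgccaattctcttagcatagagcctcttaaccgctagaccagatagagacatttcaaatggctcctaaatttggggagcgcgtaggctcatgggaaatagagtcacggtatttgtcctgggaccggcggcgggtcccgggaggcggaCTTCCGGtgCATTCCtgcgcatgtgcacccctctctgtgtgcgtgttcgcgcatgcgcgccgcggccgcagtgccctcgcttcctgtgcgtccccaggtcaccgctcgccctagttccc
ZNF641, fallen, chr12:48350870-48351169, minus strand: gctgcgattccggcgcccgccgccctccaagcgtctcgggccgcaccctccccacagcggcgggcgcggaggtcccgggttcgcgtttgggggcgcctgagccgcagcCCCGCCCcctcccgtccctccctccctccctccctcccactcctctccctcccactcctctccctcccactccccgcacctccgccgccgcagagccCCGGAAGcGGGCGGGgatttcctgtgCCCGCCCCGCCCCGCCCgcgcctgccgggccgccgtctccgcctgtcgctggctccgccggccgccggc

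The ZNF12 window held the ETS motif and the TEAD motif, at a GC content of 59.0%. That of ZNF641 held the ETS motif and the GC box, at 79.7%.

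Sequence shared with other genes limits what counts of this family can say. In 15 members more than 20% of the 50-base words of the transcript occur in another annotated gene. The highest shares were in ZNF320 (99.5%), ZNF286A (97.8%) and ZNF747 (89.6%), and the counts of these genes are uncertain. ZNF286A had 8.80 and 8.92 CPM in the controls, against 13.6 and 14.6 CPM with siAARS1, and its near copy ZNF286B moved the same way in the values above. Exons of 112 members overlap those of another gene, 50 of them on the same strand.

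The proteins that KRAB factors work through were followed as a list of 41 genes. Of these, 20 rose, 6 fell and 15 did not pass, with a median log2 fold change of 0.08, beside 32.6% higher and 38.0% lower among all genes. Under median scaling 14 were higher and 23 lower, with a median of -0.15. All genes were then called higher in 23.8% and lower in 56.3%, with a median of -0.26. After the correction for GC content and length, 28 of 40 were called higher and 7 lower, with a median of 0.21. The shares over all genes were then 32.9% and 33.3%. At the core, TRIM28 had 431 and 444 CPM in the controls, against 474 and 460 CPM with siAARS1, a change of 0.09 (limma adjusted p = 0.0268, SE 0.0356). SETDB1 had 61.4 and 61.6 CPM against 64.6 and 63.8 CPM, a change of 0.06 that did not pass (limma adjusted p = 0.270). Both siAARS1 libraries were above both controls for these genes by small margins, and under median scaling the changes were -0.14 and -0.16. After the correction for GC content and length they were 0.47 (limma adjusted p = 2.24e-11) and 0.19 (limma adjusted p = 0.000478). ATF7IP, which holds SETDB1 in the nucleus, rose from 19.8 and 20.7 CPM to 56.9 and 58.4 CPM, a change of 1.47 that became 0.22 after the correction for GC content and length. The HP1 genes CBX3, CBX5 and CBX1 rose by 0.93, 0.57 and 0.14 on the log2 scale. Under median scaling they stood at 0.71, 0.34 and -0.09, and after the correction for GC content and length at 0.37, -0.62 and 0.20.

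The largest changes in the list were in FAM208B (TASOR2), ATRX and SMARCAD1. FAM208B, a relative of the HUSH subunit TASOR, had 11.8 and 13.6 CPM in the controls, against 114 and 120 CPM with siAARS1, a change of 3.11. ATRX, a remodeller that lays down histone H3.3, had 9.03 and 9.14 CPM against 60.9 and 67.5 CPM, a change of 2.69. SMARCAD1 had 5.10 and 4.76 CPM against 30.1 and 32.8 CPM, a change of 2.45. The groups were far apart in all 3, and after the correction for GC content and length the changes were 2.07, 1.12 and 1.14. Of 5 genes listed under HUSH, FAM208B among them, 4 rose, and of 13 NuRD genes 4 rose and 3 fell. Of 4 SUMO pathway genes 1 fell and 3 did not pass. Over all genes tested, 32.6% were called higher and 38.0% lower. After the correction for GC content and length 4 HUSH genes were called higher. PPHLN1, which rose by 0.38, then stood at 0.07 (limma adjusted p = 0.177). Under median scaling 4 HUSH genes were higher and 1 lower, MORC2 at -0.26 (limma adjusted p = 6.56e-05). Under median scaling 2 NuRD genes were higher and 9 lower, beside 23.8% and 56.3% of all genes. After the correction for GC content and length, HDAC2 and RBBP4, NuRD genes that rose, stood at -0.85 and -0.69, and MTA1 and MTA2, which fell, stood at 0.27 and 0.15. These 4, PPHLN1 and MORC2 were named after their values were seen.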

How the data were processed

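RNA-seq was analysed for 2 control and 2 siAARS1 libraries, grouped by the sample titles. The authors deposited a table of 14431 genes in CPM, read counts per 1000000 of a library size, with no correction for gene length or GC content. Per the labels, the submitters' processing notes name RSEM 1.3.3 and hg38, with no role given; the aligner, annotation and use of strand are not given in the sources used here. Each listed gene had over 1 CPM in at least 1 library. In all 4 libraries 100% of the values were whole multiples of 1 read (tolerance 0.0006 CPM), so read counts were recovered for the alternatives. Identifier columns of the deposited table were not used as measurements.

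Genes were tested 2-sided on log2(CPM + 1) with limma 3.58.1 in R 4.3.3 (lmFit and trended eBayes), with no term but the group. The 14199 genes tested averaged at least 1 CPM in either group. Fold changes on this scale understate the change of low genes. P-values were adjusted by Benjamini-Hochberg across the whole tested table. Reads are not independent molecules, and 2 libraries per group limit the precision. Replicates differed beyond sampling noise (chi-square per gene 3.62 for control, 3.60 for siAARS1). All 4 were treated as separate samples, though such a spread cannot show that they came from separate cultures.

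The members and lists were chosen with earlier results of these data known. The text names the 10 largest rises and falls among members called with no overlap of the groups, members of the role list, the 5 most abundant by CPM, the 3 genes on either side of the level criterion, the core of the KRAB partner list and its 3 largest called changes. Transcripts (1 per gene, coding ones first, then by APPRIS rank and coding length) came from GENCODE v29 (GRCh38), matched by gene identifier for 217 members and 97.2% of listed genes, which may not be the authors' annotation. Fingers and SCAN domains were found by pattern and KRAB boxes by a weight matrix over 36 residues. Such searches can miss domains, and missed ones were not counted. Clusters are members less than 1000000 bases apart, at least 5 to a cluster. Corrections took out, per library, the smooth trend (mgcv 1.9.3) on GC content and length, of the transcript or of the coding sequence and 3' UTR. The second correction, and the first with the replicate block, were added after seeing the data. edgeR 4.0.16 (quasi-likelihood, TMM) called 9806 genes on the recovered reads, and DESeq2 1.42.0 was also run. The fit was tested on simulated data.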

Additional observations from a re-analysis of the deposited data

How the results depend on the processing

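With 2 libraries per group the spread rests on few values, CPM is relative to each library, and neither the counting nor the annotation is known. For each value below that moved, the cause was not tested. A pseudocount of 0.1 and no filter on low values changed none of the members' calls. Of 47 named members, 18 kept their call and direction in every alternative.

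Median scaling gave 95 members called lower and a median log2 fold change of -0.071, with 23 KRAB partners called lower, and it turned ZNF384 to -0.13, ZNF346 to -0.21 and ZNF595 to -0.22. Quantile normalization gave 87 members called lower, a median of -0.040, a distance of 0.11 from the median of all genes, and ZNF346 at -0.15. On the recovered reads, edgeR with TMM gave 110 members higher and 30 lower, a median of 0.19, 1 KRAB partner called lower, ZNF335 at 0.025 and ZNF618 at 0.033. With library size only, edgeR gave ZNF595 -0.012. DESeq2 gave 95 members higher and 22 lower, a median of 0.20, 1 KRAB partner called lower, ZNF598 at 0.0016, ZNF335 at 0.039 and ZNF618 at 0.047. At a threshold of 0.01, 1 KRAB partner was called lower.

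Leaving out 1 library at a time gave 89 to 98 members called higher, 28 to 36 called lower, a median of 0.13 to 0.16 and 2 to 5 KRAB partners called lower. The 2 came without control replicate 2 and without siAARS1 replicate 2, against 6 with all libraries. Some members near 0 changed sign: ZNF335 ranged from -0.054 to 0.030, ZNF346 from -0.048 to 0.084, ZNF595 from -0.027 to 0.034, ZNF618 from -0.037 to 0.028 and ZNF592 from -0.11 to 0.0013.

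The groups share replicate numbers, but the labels do not say that a number pairs libraries, and with 2 pairs the correlation of same-numbered deviations was 0.12. With the replicate block 103 members were called higher and 43 lower, and no named member or KRAB partner count changed.

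The correction for GC content and length moved the members' median to 0.20, with and without the replicate block. It gave, in both fits, ZNF598 0.33, ZNF622 0.20, ZNF593 0.036, ZNF76 0.23, ZNF217 -0.18, ZNF592 0.091, ZNF687 0.0025, ZNF274 0.12, ZNF830 -0.067, ZNF335 0.33, ZNF280D -0.76 and ZNF618 0.32. The correction for the coding sequence and 3' UTR moved the median to 0.17 and its distance from all genes to 0.16. It gave ZNF518A -0.29, ZNF598 0.34, ZNF622 0.16, ZNF593 0.12, ZNF76 0.25, ZNF217 -0.11, ZNF592 0.16, ZNF687 0.015, ZNF462 -0.12, ZNF335 0.34, ZNF280C -0.12, ZNF280D -1.59 and ZNF618 0.25.

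The level criterion moved the counts. A mean of at least 5 CPM gave 154 ZNF genes called higher, a median of 0.28 and a distance of 0.34 from all genes. At least 10 CPM in each library gave 87 called, 59 of them higher, with a median of 0.064 and a distance of 0.12. No criterion gave 294 called, 251 of them higher, with a median of 0.41 and a distance of 0.47.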
